A study of Amia calva with 36 samples.

Results

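The ventral endoderm of the bowfin foregut was compared between Ballard stages 25 and 27, with 3 libraries at each stage, which are 6 of the 36 libraries of the study. The libraries were chosen by their labelled tissue and stage alone. The bowfin (Amia calva) is an air-breathing ray-finned fish, and its embryos came from eggs laid in the wild and kept in lake water at 12.8 °C. No mutant, transgene or drug treatment is named for any group. Per the labels, the gas bladder buds from the foregut at stage 25 and grows out at stage 27, and stage 24 is just before budding. Transverse sections of 15 µm were cut along the bud, dorsal and ventral endoderm and mesoderm were excised with a laser within 2 hours per slide, and the RNA was amplified before sequencing. Which embryos went into which library, and how many, is not in the labels. P-values therefore measure the spread between these libraries, which may be technical.

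The foregut endoderm is the epithelial tube that gives rise to the lining of the pharynx, oesophagus, stomach, gas bladder or lungs, liver and pancreas. Gas bladders and lungs are homologous outgrowths of this tube. Lungs bud from its ventral side in tetrapods, whereas the gas bladder of bowfin and gars opens dorsally, so the ventral endoderm at these stages faces the side from which the gas bladder does not grow. Signals between the endoderm and the mesoderm around it pattern both layers during budding. The deposited table names genes by bowfin identifiers, and 11428 of 21948 (52.1%) carry the Ensembl identifier of a spotted gar gene. Neither kind of identifier was paired with a gene symbol in the sources used here. Markers of endoderm, mesoderm, blood or muscle could not be looked up, so the tissue label was not checked against markers, and no gene family or function is described.

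The 6 ventral endoderm libraries held 792135 to 1998280 reads assigned to genes, within a range of 3040 to 1998280 over all 36. At stage 25, replicates 1, 2 and 3 held 1042603, 1698320 and 792135 reads. At stage 27 they held 1998280, 1129243 and 1447274 reads, so depth overlapped between the stages. The libraries also carry running numbers, 3, 6 and 11 at stage 27 and 27, 32 and 36 at stage 25, so stage and any batch that follows these numbers cannot be told apart.

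More genes were read in ventral endoderm at stage 27 than at stage 25 at equal depth. With each library thinned to 792135 reads, 5667, 3735 and 4064 genes had a read in stage 25 replicates 1, 2 and 3. At stage 27 the numbers were 11488, 10675 and 8238 genes. Every stage 27 library was above every stage 25 library, with means of 10134 ± 1691 against 4489 ± 1034 genes (SD, n = 3 each), a ratio of 2.26. An exact two-sided permutation test gave p = 0.1, the lowest value it can reach with 6 libraries. The ratio was 2.33 for genes with at least 3 reads and 2.18 for genes with at least 10 reads, so it did not rest on genes seen in a single read. In bulk tissue, fewer cells of a type and less RNA per cell cannot be told apart, and the amount of RNA that entered each amplification is not given in the sources used here. The increase was not tested as particular to ventral endoderm: at 723011 reads per library the stage 27 to stage 25 ratio was 2.27 in ventral endoderm, 2.57 in dorsal endoderm, 2.96 in ventral mesoderm and 2.48 in dorsal mesoderm.

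Reads were concentrated in fewer genes at stage 25. The 100 most abundant genes of each library took 42.3%, 52.5% and 47.1% of the reads in stage 25 replicates 1, 2 and 3, and 31.3%, 30.1% and 25.9% at stage 27. The groups did not overlap, with means of 47.3% ± 5.10 and 29.1% ± 2.83 (SD, n = 3 each), a ratio of 0.616 (exact two-sided permutation test, p = 0.1). Of these 2 permutation tests both have an adjusted p of 0.1. The 1000 most abundant genes took 86.2% ± 6.17 of the reads at stage 25 and 64.1% ± 1.11 at stage 27. AMCG00006382, which has no gar identifier, was the most abundant gene in 5 of the 6 libraries. It took 14.9%, 20.0% and 16.1% of the reads at stage 25 and 5.59%, 7.10% and 1.76% at stage 27, again without overlap. In stage 27 replicate 3 it ranked 2, behind AMCG00008353, which took 3.48% of the reads there and between 1.68% and 2.06% in the other 5 libraries.

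**Figure D1:**
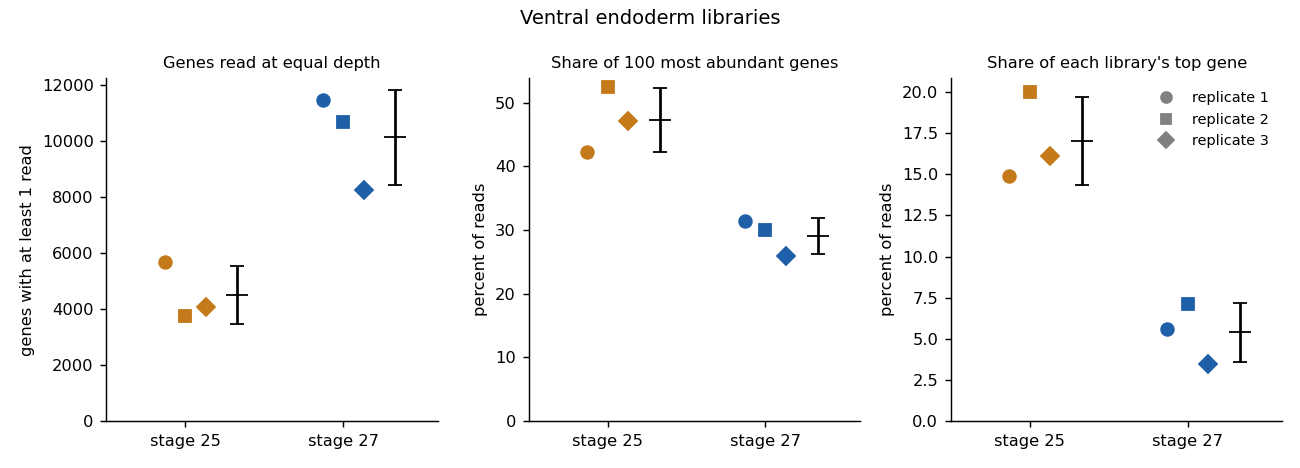
Each panel plots the 6 ventral endoderm libraries by stage, with a marker for each replicate and, beside them, the mean with bars of 1 SD: genes with a read after thinning to 792135 reads, the percent of reads in the 100 most abundant genes, and the percent of reads in the top gene of each library. Stage 27 libraries lie at 8238 to 11488 genes and stage 25 libraries at 3735 to 5667 genes, and stage 27 lies lower in both percent panels.

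The genes read at stage 25 were almost all read again at stage 27, while the reverse did not hold. At full depth, 13815 of the 21948 genes had a read in at least 1 of the 6 libraries, 13542 at stage 27 and 8040 at stage 25. A further division gave 5775 genes read at stage 27 and in no stage 25 library, against 273 genes read at stage 25 and in no stage 27 library. All 3 libraries held a read for 7592 genes at stage 27 and for 1833 genes at stage 25. The 1771 genes read in all 6 libraries were 96.6% of those 1833 genes and 23.3% of those 7592. There were 1663 genes read in all 3 stage 27 libraries and in no stage 25 library, and 0 genes of the opposite kind.

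Stage 25 libraries also shared fewer genes among themselves. Of the 7592 genes read in all 3 stage 27 libraries, 2268 were read in 1, 1890 in 2 and 1771 in 3 stage 25 libraries. Their level at stage 27 was higher where more stage 25 libraries held them: the median CPM (reads of the gene scaled to a common library total) at stage 27 was 18.4 for genes read in no stage 25 library, 32.4 for 1, 60.4 for 2 and 162 for 3 libraries. The share with a gar identifier was 62.8%, 66.6%, 66.1% and 62.8% in the same order, and 39.4% among the 8133 genes with no read in any of the 6 libraries.

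**Figure D2:**
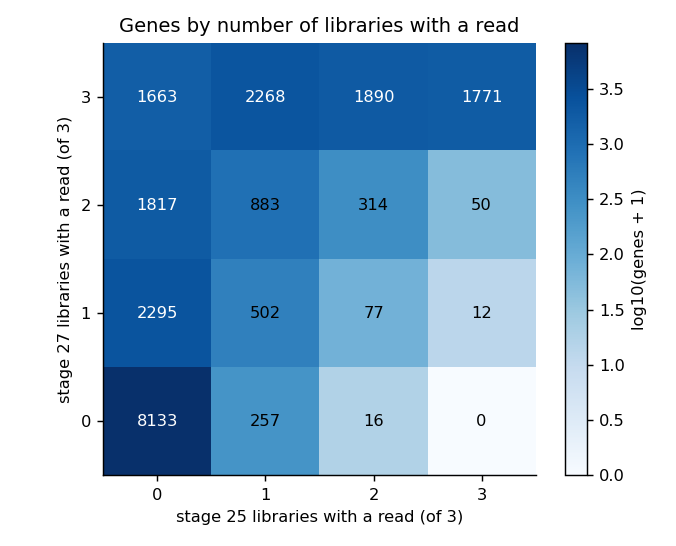
The grid counts genes by the number of stage 25 ventral endoderm libraries (columns) and stage 27 libraries (rows) that hold at least 1 read. The 1663 genes read in all 3 stage 27 and no stage 25 library stand against 0 genes of the opposite kind.

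Genes were missing from stage 25 libraries even at high levels. At 792135 reads, of the genes at 100 CPM or more in a stage 25 library, on average 30.7% had no read in another stage 25 library (range over ordered pairs 21.8% to 36.6%). Between stage 27 libraries the same share was 1.42% (0.198% to 2.63%). A gene at 100 CPM or more in a stage 25 library was missing from a stage 27 library in 5.11% of cases on average, and a gene at that level at stage 27 was missing from a stage 25 library in 24.2% of cases. The ranges within stage 25 and within stage 27 did not overlap. At 1000 CPM or more, 16.5% of the genes of a stage 25 library were still without a read in another stage 25 library, and 0% between stage 27 libraries. A level of 100 CPM was 79.2 reads at this depth. These shares were not tested.

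**Figure D3:**
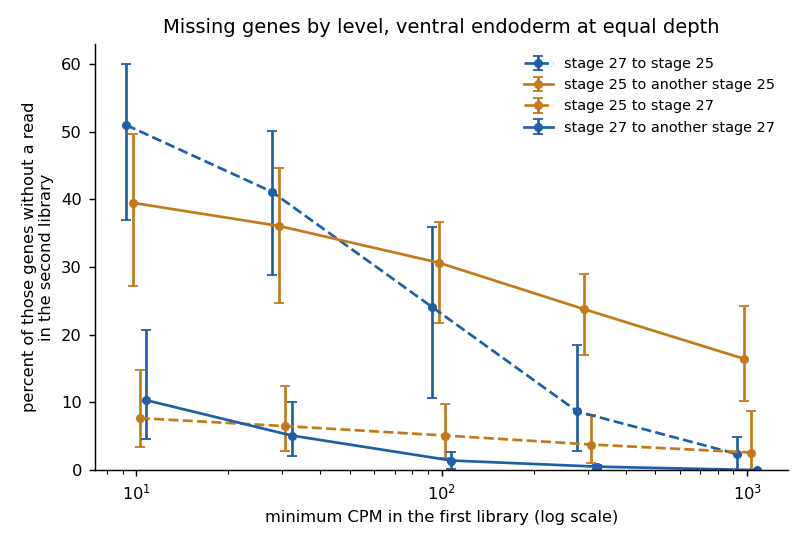
Lines plot the mean percent of genes at or above a CPM level in the first library (x axis, log scale) that have no read in a second ventral endoderm library (y axis), for pairs of libraries within and between stages at equal depth, with bars for the range over ordered pairs. At 100 CPM the line for pairs within stage 25 lies at 30.7% and the line for pairs within stage 27 at 1.42%.

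Levels were correspondingly less alike within stage 25. Spearman correlations across the 14132 tested genes (over 1 CPM in at least 3 of the 36 libraries) were 0.397 to 0.428 between stage 25 libraries, 0.686 to 0.760 between stage 27 libraries and 0.447 to 0.579 between stages. Genes are not independent replicates, and the genes without a read in a library share 1 rank, so the correlations are a description. Each stage 25 library ranked genes more like each stage 27 library than like another stage 25 library. Pairs of stage 25 libraries shared 29 to 32 of their 100 most abundant genes, and pairs of stage 27 libraries shared 56 to 75. In all 6 libraries 18 genes were among the 100 most abundant.

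The most abundant genes of stage 25 were also abundant at stage 27. Of the 328 genes at 100 CPM or more in all 3 stage 25 libraries, all 328 were read in all 3 stage 27 libraries, and 280 (85.4%) were at 100 CPM or more there too. At stage 27, 1140 genes were at 100 CPM or more in all 3 libraries. Of these, 843 were read in 3 stage 25 libraries, 233 in 2, 56 in 1 and 8 in none, and 280 (24.6%) were at 100 CPM or more in all 3. Of 330 genes at 300 CPM or more in all stage 27 libraries, 320 were read in all 3 stage 25 libraries and 0 were missing from all of them.

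Of 1992 genes at 50 CPM or more in all 3 stage 27 libraries, 33 were without a read in any stage 25 ventral endoderm library. A gar identifier was present for 23 of the 33. The 33 genes were not absent from younger tissue. All 33 had a read in some stage 24 or 25 library of another region or stage, 32 of them in at least 1 of the 9 other stage 25 libraries, which held 6 to 19 of the 33 each (18.2% to 57.6%) and 18.4% to 37.8% of all tested genes. The share of all tested genes read in at least 1 of these libraries was not computed, so the counts of 33 and 32 have no background. In stage 24 ventral endoderm, 6, 26 and 1 of the 33 genes were read in replicates 1, 2 and 3. Replicate 2 of that group was the richest of the 3, with 8249 genes read from 703604 reads, and replicate 3 held only 3040 reads. The 26 genes in replicate 2 were 78.8% of the 33, beside 57.5% of all tested genes read in that library. Of the tested genes read in all 3 stage 27 ventral endoderm libraries, as all 33 were, that library held 79.9%.

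Among the 1771 genes read in all 6 libraries, most levels were higher at stage 27 on the CPM scale, and this depended on the scaling. The median log2 difference of group means (stage 27 minus stage 25, on the deposited log2 CPM scale, which includes a prior count of 2 reads) was 1.03, with quartiles of 0.08 and 2.04. It was above 0 for 1367 genes (77.2%) and below 0 for 404. A difference above 1 was seen for 900 genes and one below −1 for 149. The median CPM of these genes was 152.7 ± 1.38 at stage 27 and 79.4 ± 21.7 at stage 25 (SD over 3 libraries). All 3 stage 27 libraries lay above all 3 stage 25 libraries for 347 of the 1771 genes (19.6%) and below for 42 (2.37%). Over all 14132 tested genes those shares were 23.4% (3309 genes) and 0.347% (49 genes). The 3309 include 1660 genes read in all 3 stage 27 and no stage 25 library, which cannot overlap. A gene without a read in some stage 25 library cannot lie lower in all 3 stage 27 libraries. Neither share can therefore be compared between the 1771 genes and all tested genes. CPM values sum to the same total in every library, so a lower share of the top genes raises the summed share of all others by construction. The 1771 genes as a set held a mean of 64.1% of the reads in the stage 27 libraries and 73.2% in the stage 25 libraries. That set includes the top gene AMCG00006382, which had a mean of 48141 CPM at stage 27 and 170002 CPM at stage 25. The share of the set without AMCG00006382 was not computed. How much of the median difference follows from the top genes was not tested. Scaling each library to a common median of these 1771 genes moved their median difference from 1.03 to 0.13, near 0 by construction. Quantile normalization over all tested genes moved it to 0.20. Of the 1771 genes, 217 were higher and 22 lower at an unadjusted limma p under 0.05 on the CPM scale, against 93 higher and 82 lower after median scaling. Since median scaling centres these same genes, the closer balance cannot show whether their levels rose. Over all tested genes the median was 1.24, and 0.85 after median scaling.

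No single gene passed the test when it took its spread from the 6 ventral endoderm libraries alone. A limma trend fit of the log2 CPM values with Benjamini-Hochberg adjustment called 0 of 14132 genes (0%) at an adjusted p under 0.05. The smallest adjusted p was 0.0606. At an unadjusted p under 0.05, 2699 genes were higher at stage 27 (19.1%) and 29 were lower (0.205%). That split also depended on scaling: quantile normalization, which gives genes without a read different values in different libraries, gave 413 higher and 2197 lower. The count of adjusted calls depended on how the spread was estimated. limma's voom, which weights each value by its precision, called 1216 genes higher (8.6%) and 2 lower (0.0142%), 8.62% in all. Left out in turn, stage 27 replicate 3 gave 2202 calls and stage 25 replicate 1 gave 255, whereas leaving out any of the other 4 libraries gave 0. Stage 27 replicate 3 held the fewest genes of its stage and stage 25 replicate 1 the most of its own.

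When the fit took in the 6 dorsal endoderm libraries of the same stages, 582 genes (4.12%) were higher at stage 27 and 1 gene (0.00708%) was lower, 4.13% in all. With all 24 libraries of stages 25 and 27, 537 genes (3.8%) were higher and 7 (0.0495%) lower, 3.85% in all. With all 36 libraries 275 (1.95%) were higher and 5 (0.0354%) lower, 1.98% in all. The 3 fits called 138 genes higher in common. In these wider fits a gene without a read throughout an added group has no spread there, which can lower its estimated spread. For this reason the fit of 6 libraries was kept as the main one. How many calls rest on such groups was not tested. Scaling each library to a common median left 84 of the 582 genes (0.594% of the tested genes), and none lower. With the number of genes read in each library as a covariate, 1 gene (0.00708%) was called with 24 libraries. With 12 libraries that fit called 0 genes. At an unadjusted p under 0.05 the covariate fits had 684 genes higher and 342 lower with 24 libraries, and 751 higher and 501 lower with 12. Without the covariate the 12-library fit had 2986 higher and 32 lower. The median log2 difference over all tested genes was 0.12 with the covariate in 24 libraries and 0 in 12, beside 1.24 without it. Over the 24 libraries the number of genes read did not overlap between the stages. It was 8511 to 13512 at stage 27 and 2616 to 5780 at stage 25. The covariate fits therefore extrapolate to equal detection and cannot separate stage from the number of genes read.

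The 582 genes called with the 12 endoderm libraries were often without a read at stage 25. All 582 were read in all 3 stage 27 ventral endoderm libraries. At stage 25, 347 of them (59.6%) were read in no ventral endoderm library, 180 in 1, 41 in 2 and 14 in 3. The share read in no stage 25 ventral endoderm library was 43.9% over all tested genes and 21.9% over the 7589 tested genes read in all 3 stage 27 libraries. Their median log2 difference was 4.40 and their mean level at stage 27 had a median of 51.0 CPM (1.09 to 1124). A gar identifier was present for 361 (62.0%), against 59.5% of all tested genes and 64.8% of those 7589. In stage 24 ventral endoderm replicate 2, 424 of the 582 (72.9%) were read, beside 57.5% of all tested genes and 79.9% of the 7589. Both shares of the 582 were thus below those of the 7589 genes.

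These genes were also mostly higher at stage 27 in the other regions. In ventral mesoderm, whose libraries had no part in calling them, 552 of the 582 (94.8%) had a higher mean at stage 27, beside 87.9% of all tested genes, with a median log2 difference of 2.50 beside 1.66. In dorsal mesoderm the numbers were 499 (85.7% beside 79.9%) and 1.90 beside 1.26. In dorsal endoderm, whose libraries entered the fit, 556 (95.5% beside 83.5%) were higher, with a median of 3.39 beside 1.37. Among the 7589 tested genes read in all 3 stage 27 ventral endoderm libraries, 91.3% were higher in ventral mesoderm, 83.2% in dorsal mesoderm and 90.4% in dorsal endoderm. Their median log2 differences were 2.26, 1.69 and 2.19 in the same order. Beside these genes the excess of the 582 was smaller than beside all tested genes. All these values are descriptions, without a test of the list.

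**Figure D4:**
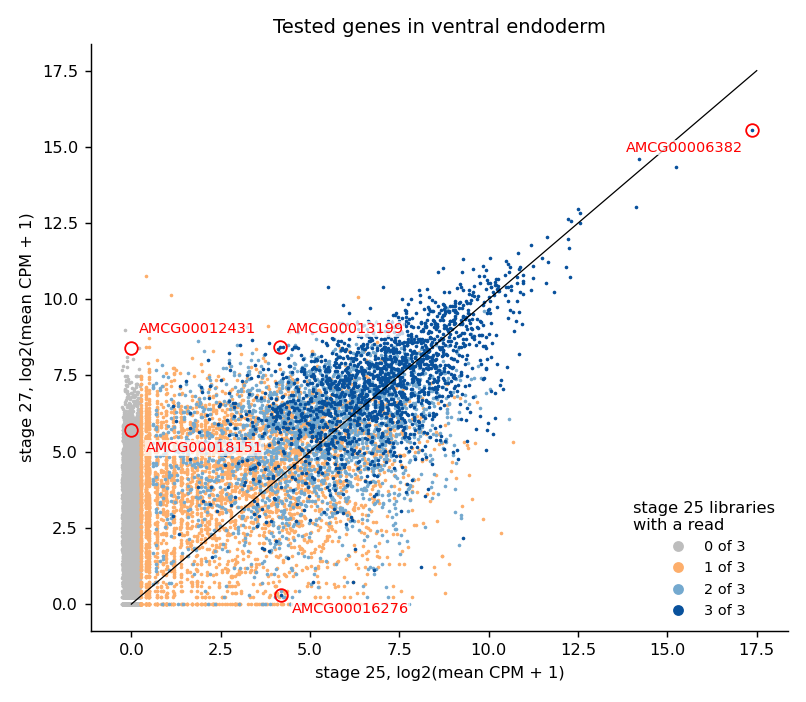
Each point is a tested gene, placed by its log2(mean CPM + 1) in stage 25 (x axis) and stage 27 (y axis) ventral endoderm and coloured by the number of stage 25 libraries with a read. The line marks equal levels, genes read in no stage 25 library lie on the left edge with a sideways scatter added for display, and AMCG00006382 lies below the diagonal at the upper right.

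Since the fit of 6 libraries called no gene, the genes named here came from those called with the 12 endoderm libraries, a choice made after their values were seen. AMCG00013199 (gar ENSLOCG00000012498) was the gene with the largest difference among those called higher and read in all 6 libraries. Its level was 1.92, 0.589 and 48.0 CPM in stage 25 replicates 1, 2 and 3 and 284, 401 and 341 CPM at stage 27. The groups did not overlap, and stage 25 replicate 3 held nearly all of the reads of its stage. The means were 16.8 ± 27.0 and 342 ± 58.5 CPM (SD, n = 3), a 20.3-fold difference, with a log2 difference of 5.47. The limma adjusted p was 0.0916 with 6 libraries (SE 1.26) and 0.0495 with 12 (SE 1.31), and it ranged from 0.0182 to 0.727 over the alternatives, of which 5 of 36 called it. The gene was also read in stage 24 ventral endoderm, at 198 CPM in replicate 2.

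AMCG00012431 (gar ENSLOCG00000008537) had the highest mean at stage 27 among genes called higher with a gar identifier and no stage 25 ventral endoderm read. Its level at stage 27 was 48.0, 57.6 and 908 CPM in replicates 1, 2 and 3. Replicate 3 was far above the others, and no stage 25 endoderm library of either side had a read. Its mean of 338 ± 494 CPM (SD, n = 3) was at least 398-fold higher than a floor of 3 reads over the stage 25 group, 0.849 CPM, which covers counting error only because amplified reads are not independent molecules. The log2 difference was 6.25 (SE 1.30, limma adjusted p 0.0786 with 6 libraries, and SE 1.05, adjusted p 0.0194 with 12). The stage 25 dorsal endoderm group, also without a read, added no spread to the fit of 12 libraries. The bound rested on replicate 3: without it the mean was at least 62.2-fold higher than the floor, and the log2 difference was 4.89. Over the alternatives the adjusted p ranged from 0.000133 to 0.418, and 13 of 35 called the gene. It was read at 92.4 CPM in stage 24 ventral endoderm replicate 2.

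AMCG00018151 (gar ENSLOCG00000001695) was the gene called with the number of genes read as a covariate, with a log2 difference of 5.74 and a limma adjusted p of 0.0109. That fit extrapolates to equal detection, so it cannot separate stage from the number of genes read. The gene had no read in any stage 24 or stage 25 ventral endoderm library and 15.5, 53.1 and 85.0 CPM at stage 27. No stage 25 library of any region and no stage 27 dorsal mesoderm library held a read of it. Those groups had no spread of their own, which can lower the estimated spread of the gene. Its stage 27 libraries in dorsal endoderm held 1.28, 5.35 and 0 CPM, and those of ventral mesoderm held 0, 0.638 and 0 CPM, so its highest levels among these 9 libraries were in ventral endoderm. With the 6 libraries alone its log2 difference was 4.57 and its adjusted p 0.0710, and 17 of 35 alternatives called it.

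The gene called lower with 12 libraries was AMCG00016276 (gar ENSLOCG00000005009). It stood at 21.1, 27.7 and 2.52 CPM at stage 25 and at 0, 0 and 0.691 CPM at stage 27. The groups did not overlap, and their means were 17.1 ± 13.0 and 0.230 ± 0.399 CPM (SD, n = 3). The log2 difference was −2.81, with a limma adjusted p of 0.0418 with 12 libraries (SE 0.639) and 0.199 with 6 (SE 0.959). In the fit of 12 the stage 25 dorsal endoderm group, without a read, added no spread. The stage 27 dorsal endoderm group, read in 1 library, added little. Of 35 alternatives, 5 called the gene. Stage 24 ventral endoderm held 47.7, 35.5 and 0 CPM in replicates 1, 2 and 3. Outside ventral endoderm it was read in 5 libraries, at 18.2 and 2.28 CPM in stage 24 dorsal endoderm, 1.19 CPM in stage 27 dorsal endoderm, 9.38 CPM in stage 24 dorsal mesoderm and 4.14 CPM in stage 25 dorsal mesoderm.

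AMCG00006382, the most abundant gene, had a mean of 170002 ± 26736 CPM at stage 25 and 48141 ± 27500 CPM at stage 27 (SD, n = 3), 3.53-fold lower at stage 27. The log2 difference was −2.03 (SE 1.07, limma adjusted p 0.337 with 6 libraries). It fell at an adjusted p of 0.00193 with 24 libraries, and with 12 libraries the p was 0.0559. Among only the 4025 genes read in at least 2 libraries of each stage, it was the 1 gene called (adjusted p 0.00386). In all, 11 of 36 alternatives called it. Stage 27 replicate 3 held the lowest level, and without that library the log2 difference was −1.42 and the adjusted p 0.0212 with the 5 libraries left.

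A difference between stages was compared directly with that of ventral mesoderm, in a limma fit of the 12 ventral libraries with a term for the difference between the 2 stage differences. It differed for 75 of 14132 genes (0.531%). The value was higher in ventral endoderm for 9 genes (0.0637%) and lower for 66 (0.467%). A lower value does not mean a fall in ventral endoderm: 48 of the 66 had no read in any stage 25 ventral endoderm library. In all 3 of those libraries 10 of the 66 were read. Over all tested genes, 43.9% were without a read in stage 25 ventral endoderm. The 66 genes were mostly without a read in ventral mesoderm at stage 25. All 66 were read in all 3 stage 27 ventral mesoderm libraries, 56 in no stage 25 ventral mesoderm library, and 36 in no stage 27 ventral endoderm library. Of all 14132 tested genes, 7331 had a read in some stage 25 ventral mesoderm library. The 66 were selected for this difference, so these counts are a description. A group without a read has no spread, which can lower the estimated spread of a gene. How many of the 75 calls rest on such groups was not tested. All 9 genes of the other direction were read in all 3 stage 27 ventral endoderm libraries, 5 of them in no stage 25 ventral endoderm library. Without stage 25 replicate 1, or without stage 25 replicate 2, of ventral endoderm the count was 0, and without stage 25 replicate 3 it was 7. Without stage 27 replicates 1, 2 and 3 it was 224, 12 and 138. With the replicate number as a block shared by both stages the count was 0.

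Examples with a gar identifier, chosen after their values were seen, had opposite orders of stage in the ventral layers. AMCG00008850 (gar ENSLOCG00000003733) stood at 172, 258 and 662 CPM at stage 25 and 79.6, 18.6 and 24.9 CPM at stage 27 in ventral endoderm. In ventral mesoderm it stood at 0, 1.55 and 0 CPM at stage 25 and at 351, 272 and 470 CPM at stage 27. Stage 24 ventral mesoderm held 30.3, 1068 and 293 CPM, so stage 25 was the stage at which it was nearly missing there. Replicates of some other early groups differed widely. Stage 25 dorsal endoderm held 54.4, 0.712 and 823 CPM, and stage 24 ventral endoderm 1.54, 279 and 0 CPM. In neither ventral layer did the stage 25 and 27 groups overlap. The stage differences of the ventral layers differed by −10.44 on the log2 scale (SE 1.23, limma adjusted p 0.0311). AMCG00004698 (gar ENSLOCG00000006987) differed by −9.39 (limma adjusted p 0.0468). Its level in ventral endoderm was 224, 41.2 and 675 CPM at stage 25 and 11.0, 27.5 and 0 CPM at stage 27. Ventral mesoderm had 0 reads of it at stage 25 and 48.6 to 65.7 CPM at stage 27. The stage 25 ventral mesoderm group thus added no spread to the fit.

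In the other direction, AMCG00004270 (gar ENSLOCG00000016359) differed by 9.496 (limma adjusted p 0.0311). It stood at 0, 1.18 and 1.26 CPM at stage 25 and 144, 21.3 and 259 CPM at stage 27 in ventral endoderm, while ventral mesoderm held 199 to 789 CPM at stage 25 and 13.4 to 23.6 CPM at stage 27. Stage 24 ventral endoderm held 0, 108 and 329 CPM, the last from 1 read in a library of 3040 reads. AMCG00010243 (gar ENSLOCG00000011935) differed by 6.65 (adjusted p 0.0320). It stood at 0, 0 and 1.26 CPM at stage 25 and 51.0, 78.8 and 93.3 CPM at stage 27 in ventral endoderm, and at 208 to 337 CPM and then 45.1 to 133 CPM in ventral mesoderm. At stage 24 the ventral endoderm libraries held 0, 78.2 and 0 CPM of AMCG00010243.

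Against dorsal endoderm, the stage difference differed for 4 of 14132 genes (0.0283%) in a limma fit of the 12 endoderm libraries, 2 in each direction (0.0142% each). AMCG00000999 (gar ENSLOCG00000008010) stood at 0, 0 and 1.26 CPM at stage 25 and 46.5, 70.0 and 84.3 CPM at stage 27 in ventral endoderm. Dorsal endoderm had the opposite order, with 370, 300 and 217 CPM at stage 25 and 23.1, 55.6 and 17.8 CPM at stage 27. The difference of differences was 8.19 (SE 0.88, adjusted p 0.0240). Stage 24 ventral endoderm held 77.0, 22.7 and 0 CPM in replicates 1, 2 and 3, the last a library of 3040 reads. Stage 25 was thus the stage at which the gene was nearly missing in ventral endoderm. Stage 24 dorsal endoderm held 0, 65.8 and 0 CPM.

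AMCG00005965 (gar ENSLOCG00000004553) stood at 246, 452 and 446 CPM at stage 25 and at 127, 250 and 49.1 CPM at stage 27 in ventral endoderm. The groups overlapped there through stage 25 replicate 1 and stage 27 replicate 2. Dorsal endoderm held 1.21, 0.712 and 2.00 CPM at stage 25 and 275, 136 and 237 CPM at stage 27. Its difference of differences was −7.72 (SE 0.95, limma adjusted p 0.0444). At stage 25 every ventral library was above every dorsal one, and at stage 27 the levels of the sides overlapped. Stage 24 ventral endoderm held 0, 229 and 0 CPM in replicates 1, 2 and 3.

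AMCG00012886, without a gar identifier, had 5.50, 7.08 and 8.29 CPM in stage 27 ventral endoderm and no read in stage 25 ventral endoderm or in any dorsal endoderm or ventral mesoderm library of either stage. It was the 1 gene called in both comparisons, with a difference of 2.25 in each. It passed the filter on low values only through the 3 libraries in which it is high, so its call is given as a description and no p is given. AMCG00011711, also without a gar identifier, had no read in any ventral endoderm library and 6.42, 9.63 and 8.30 CPM in stage 27 dorsal endoderm, which gave a difference of −2.43. Stage 27 dorsal endoderm was the only fitted group with a read of it. The other fitted groups added no spread, so its call is also a description and no p is given. Outside this fit, the gene was read at 5.12, 0.638 and 0.705 CPM in stage 27 ventral mesoderm. In stage 27 dorsal mesoderm it was read at 6.87, 0.883 and 8.30 CPM. Without stage 25 ventral endoderm replicate 1 the count of 4 genes became 0, and without stage 25 replicate 2 it became 1. Without stage 27 replicates 1, 2 and 3 it was 24, 23 and 50. With the replicate number as a block shared by both stages the count was 0.

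**Figure D5:**
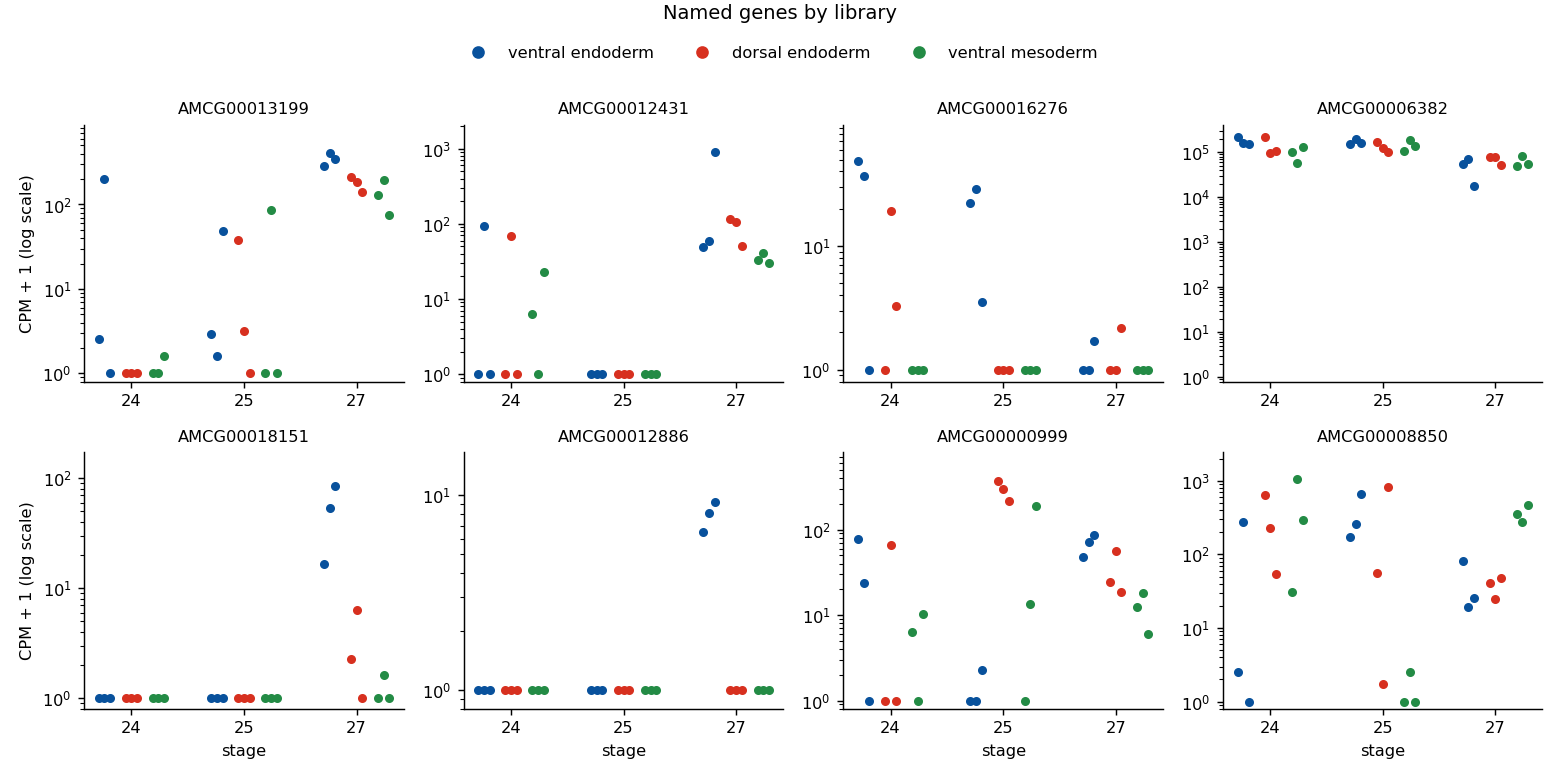
Panels plot the CPM + 1 of named genes (y axis, log scale) against stage 24, 25 or 27 (x axis), with a point for each library and colours for ventral endoderm, dorsal endoderm and ventral mesoderm. AMCG00008850 goes from 172 to 662 CPM down to 18.6 to 79.6 CPM in ventral endoderm while it goes from at most 1.55 to at least 272 CPM in ventral mesoderm.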

How the data were processed

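Laser-captured foregut tissue was profiled by RNA sequencing. Per the submitters' processing notes, Trimmomatic 0.38, STAR 2.6, edgeR (version not given) and R 3.6.0 were used; the genome build is not given in the sources used here. The authors deposited log2 CPM values for 36 libraries in 12 groups of 3. In every library the smallest value matched a prior count of 2, and reads were recovered from the values: below 200 reads, 100% were whole within 0.02, and log2 values rebuilt from them were within 5e-09 of the deposited ones. No 2 libraries were identical, and 0 columns were without a sample.

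Stage 27 and 25 ventral endoderm were compared with limma 3.58.1 in R 4.3.3 (trended moderated test, Benjamini-Hochberg adjustment, threshold 0.05) on 14132 genes, those that exceeded 1 CPM by recovered reads in 3 or more of the 36 libraries. Recovered reads were thinned with a fixed seed to compare genes read. A group without a read was given a floor of 3 reads. Among genes called with a gar identifier, 1 gene was named for the largest difference among those read in all 6 libraries and 1 for the highest mean among those without a read at the lower stage. In the lower direction the 1 gene called was named, although it is of neither kind, and the most abundant gene was named. The comparison and its lists were chosen with earlier results of these data known. Scripts were tested on simulated data. Alternatives changed the libraries fitted, scaling, filter, pseudocount, variance model and replicates.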

Additional observations from a re-analysis of the deposited data

Results flagged for a closer look

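Here 8 genes are listed because a test of the difference itself found their stage difference in ventral endoderm unlike that of another region. The log2 values are the stage difference in ventral endoderm minus that in the other region.

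Against dorsal endoderm the values were −7.72 for AMCG00005965, −2.43 for AMCG00011711, 2.25 for AMCG00012886 and 8.19 for AMCG00000999. Each was called in the limma fit of the 12 endoderm libraries and in 5 to 7 of its 16 alternatives, with the same direction in all of them.

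Against ventral mesoderm the values were −10.44 for AMCG00008850, −9.39 for AMCG00004698, 6.65 for AMCG00010243 and 9.496 for AMCG00004270. The first was called in 11 of 16 alternatives, the others in 5 to 9, again with 1 direction throughout. AMCG00012886 passed the filter on low values only through the stage 27 ventral endoderm libraries, so its call supports nothing further. AMCG00011711 had no read in ventral endoderm, so its value rests on stage 27 dorsal endoderm alone. The 4 genes against ventral mesoderm were chosen by size among those of the 75 called genes that have a gar identifier. Among them, AMCG00004698 had no read in stage 25 ventral mesoderm, a group that added no spread. What set these differences was not tested.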

How the results depend on the processing

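The ratio of genes read at equal depth kept its direction in all 9 alternatives (2.083 to 2.599 without 1 library), as did the share of the 100 most abundant genes in all 8 (0.585 to 0.652). The 0 calls of the 6-library limma fit became 280 with all 36 libraries, 259 without the library of fewest reads, 544 with 24 and 583 with 12. They became 1 with genes read as a covariate (24 libraries), 1 among genes read in 2 libraries of each stage, 1541 after quantile normalization, 1130 without a variance trend, 657 with library weights and 1218 with voom. With voom 12 and 24 libraries gave 1487 and 1625 calls, with median centring 84 and 52. Quantile normalization gives genes without a read different values by construction, and 1490 of its 1541 calls were lower. Leaving out 1 library gave 0 to 2202 calls, and 135 to 858 with 12 libraries. The other settings gave 0 calls, with 1252 to 2836 genes at an unadjusted p under 0.05.

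Among genes read in all 6 libraries the count was 0 (239 unadjusted), and it became 10 after quantile normalization, 33 with voom, 14 with 12 libraries, 15 with 24, 1 with 24 after centring, and 0 to 37 without 1 library. Against ventral mesoderm, 75 became 39 with 36 libraries, 10 with 24, 151 without a filter, 21 at 4 CPM, 34 with a pseudocount of 5, 0 after quantile normalization, 47 with voom, 44 after centring, and 0 to 224 without 1 library. Against dorsal endoderm, 4 became 2 with 36 libraries, 0 with 24, 17 without a filter, 0 at 4 CPM, 0 after quantile normalization, 0 with voom, 0 after centring, and 0 to 50 without 1 library. In settings with 0 the unadjusted counts were 935 to 1304 against ventral mesoderm, 425 to 933 against dorsal endoderm and 118 to 327 among genes read in all 6.

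Same-numbered ventral endoderm libraries did not deviate together between the stages (correlations −0.0119 to −0.0012), so the numbers were not taken as pairs between stages. The main fits against the other regions did not take them as pairs either. At stage 27, ventral endoderm and ventral mesoderm had same-numbered correlations of 0.0216 to 0.0607 and different-numbered ones of −0.0492 to 0.0184. For the other pairs of regions compared within a stage, the same-numbered and different-numbered ranges overlapped. A block for the replicate number, shared by both stages, gave 0 calls with 6 libraries and 71 with 12. It gave 0 against ventral mesoderm and 0 against dorsal endoderm. This block ties same-numbered libraries of both stages together. A block of replicates within each stage was not fitted, so pairing of regions within a stage was not accounted for. The planned count test was not run, and voom on the recovered reads took its place. Causes of these shifts were not tested, except as stated. Depth limits what is said of a missing gene: no read at 792135 reads does not show that the gene was silent.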
